A study of Homo sapiens with 3 samples.

Results

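The genes described here are HIF1A, which encodes the oxygen-regulated subunit of hypoxia-inducible factor (HIF), and 9 genes that HIF induces or that regulate it: ANKRD37, ADM, EGLN3, EGLN1, VEGFA, NDRG1, CA9, BNIP3 and KDM3A. Members were found by symbol: every probe set whose only gene symbol in the platform's annotation is a member was taken. Of the 10 members, 9 had such a probe set and so belong to the 19775 genes measured this way. They had 19 probe sets in all, of which 14, for 8 members, were above the low-signal floor described below on at least 1 array. CA9 had no listed probe set and was not analysed here. The members were chosen by a rule that used the measured ratios of these 3 arrays, since earlier results were in view, so their levels and ratios are a description and carry no test.

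The 3 arrays measured total RNA from a human colorectal cancer line, 1 array per group. The control cells received an empty-vector virus, the LATS2 cells a virus for full-length LATS2, which is a kinase of the Hippo pathway, and the LATS2N cells a virus for residues 1 to 625 of that protein, a fragment that stops before its kinase domain. All 3 groups are thus virus-infected cells, grown in DMEM with serum, and no low-oxygen treatment is named in the labels. The sample labels name the line as SW620 and the series' design text names SW480, another colorectal cancer line, and this difference was not resolved. Each group is a single array of 1 line, so no spread between cultures exists, and no difference below has a replicate check or a p-value.

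HIF is a pair of proteins, an oxygen-regulated alpha subunit (HIF-1 alpha from HIF1A, or HIF-2 alpha from EPAS1) and the constant partner ARNT. In oxygenated cells, prolyl hydroxylases encoded by EGLN1, EGLN2 and EGLN3 mark the alpha subunit for the VHL ubiquitin ligase and its destruction, and the asparaginyl hydroxylase HIF1AN blocks its coactivators. When oxygen falls, the alpha subunit is stabilised as protein, binds DNA at the core sequences ACGTG and GCGTG, and induces genes of angiogenesis, glycolysis, pH control and mitophagy. EGLN3 and, in many cells, EGLN1 are themselves HIF targets, which closes a feedback loop. HIF is controlled mainly at the protein, which arrays do not measure.

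The sequences just upstream of the members are shown because they hold, or lack, the core letters that HIF binds. RefSeq windows of GRCh38.p14 were matched for 8 of the 10 members, and VEGFA and NDRG1 had no entry. In the 250 bases before the start site, ACGTG and GCGTG were searched on both strands and are in capitals, reverse complements (CACGT and CACGC) included. The palindrome CACGTG therefore counts as 2 overlapping matches of ACGTG. Of 35114 such windows in the table, 18.5% held ACGTG, 32.2% held GCGTG and 43.2% held either. The windows are ANKRD37 (chr4:185396591-185396840, plus strand), ADM (chr11:10304823-10305072, plus strand), EGLN3 (chr14:33951075-33951324, minus strand), EGLN1 (chr1:231422288-231422537, minus strand), BNIP3 (chr10:131981924-131982173, minus strand) and HIF1A (chr14:61695263-61695512, plus strand), each printed 5′ to 3′ toward the gene.
ANKRD37: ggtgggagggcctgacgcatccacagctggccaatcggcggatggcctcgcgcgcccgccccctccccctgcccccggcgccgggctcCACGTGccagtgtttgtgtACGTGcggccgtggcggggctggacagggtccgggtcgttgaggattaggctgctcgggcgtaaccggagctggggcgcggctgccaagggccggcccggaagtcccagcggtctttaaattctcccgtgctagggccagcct
ADM: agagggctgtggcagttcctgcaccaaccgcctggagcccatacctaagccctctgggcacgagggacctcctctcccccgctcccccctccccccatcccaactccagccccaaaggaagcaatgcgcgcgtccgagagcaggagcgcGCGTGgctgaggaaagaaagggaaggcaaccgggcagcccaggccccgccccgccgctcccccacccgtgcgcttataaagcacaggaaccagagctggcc
EGLN3: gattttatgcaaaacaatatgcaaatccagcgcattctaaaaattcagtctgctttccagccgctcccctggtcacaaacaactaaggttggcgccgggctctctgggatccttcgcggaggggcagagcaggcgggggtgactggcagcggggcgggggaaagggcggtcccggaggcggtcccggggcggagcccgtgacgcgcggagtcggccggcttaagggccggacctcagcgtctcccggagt
EGLN1: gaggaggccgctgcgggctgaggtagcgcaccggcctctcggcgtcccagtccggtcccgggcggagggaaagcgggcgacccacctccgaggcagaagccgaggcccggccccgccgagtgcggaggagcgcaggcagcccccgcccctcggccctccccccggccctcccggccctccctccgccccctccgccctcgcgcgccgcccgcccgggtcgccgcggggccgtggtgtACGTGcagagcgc
BNIP3: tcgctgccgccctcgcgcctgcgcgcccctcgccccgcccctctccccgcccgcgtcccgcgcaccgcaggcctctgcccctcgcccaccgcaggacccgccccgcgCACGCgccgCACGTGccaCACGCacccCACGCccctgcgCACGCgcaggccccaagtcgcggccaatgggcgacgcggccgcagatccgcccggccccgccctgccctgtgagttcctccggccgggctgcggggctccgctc
HIF1A: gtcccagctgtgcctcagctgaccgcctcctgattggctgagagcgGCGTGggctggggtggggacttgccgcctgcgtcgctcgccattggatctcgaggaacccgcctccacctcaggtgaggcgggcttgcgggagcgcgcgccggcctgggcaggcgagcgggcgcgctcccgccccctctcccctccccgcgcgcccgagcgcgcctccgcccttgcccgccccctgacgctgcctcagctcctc

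ANKRD37 held 3 matches of ACGTG, of which 2 form a palindrome CACGTG 162 to 157 bases before the start and the other lies 143 to 139 bases before it. At least 3 matches of ACGTG were found in 1.55% of all windows. ADM held 1 GCGTG, EGLN1 held 1 ACGTG 13 to 9 bases before its start, and HIF1A held 1 GCGTG in the window printed and neither motif in its other one. BNIP3 held the most, 2 matches of ACGTG and 4 of GCGTG. EGLN3, the hydroxylase with a low signal on the LATS2 array, held neither in this window. Both windows of KDM3A, which overlap, held the same 1 GCGTG, and the window of CA9 held 1 ACGTG. In all, 4 of the 8 members held ACGTG and 7 held either motif in at least 1 window. These counts are per gene while the shares given above are per window, so nothing is read from them together. A match is a string of letters and not a measured binding site.

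Signals are deposited MAS5 intensities on a linear scale. A floor of 50.5, the median of all signals on the 3 arrays, was set under every signal before a ratio was taken. A gene was represented by its brightest probe set and called lower or higher when floored signals differed by 2-fold or more. All 8 members above the floor were bright, reaching at least 500 on an array with their brightest probe set. The spread given beside a log2 ratio is a robust SD of log2 ratios between pairs of probe sets for the same gene at like signals. It covers noise between probe sets and leaves out differences between cultures. A brighter probe set is not evidence of a more abundant transcript, and brightness is used only to choose probe sets and genes.

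The arrays themselves differed little in scale, and genes reaching 500 had a median log2 ratio to control of 0.03 in LATS2 and 0.01 in LATS2N cells, and of 0.02 between the constructs. LATS2 itself read 385.2 in control, 377.1 in LATS2 and 409.2 in LATS2N cells in its brightest probe set. Which part of the transcript that probe set reads is not known here, so it does not check the labels. Of 10 markers of colon epithelium, 7 were above the floor on all arrays, EPCAM, KRT8, KRT18 and VIL1 among them, while CDX1, LGALS4 and CEACAM5 were below it on at least 1 array. The 12 measured markers of fibroblasts, endothelium and leukocytes included 8 that were below the floor on every array, and their summed signals were between 108.1 and 722.5 per list. The brightest probe set of COL1A1, from the fibroblast list, read higher on both construct arrays (325.3 on control, 596.5 on LATS2, 606.8 on LATS2N), short of the 2-fold call. It is an _x_at probe set and the only 1 of the 5 for COL1A1 that reached the floor on any array. The 18S ribosomal RNA probe sets moved with the groups: their median over 3 probe sets was 17278 in control, 6632 in LATS2 and 10612 in LATS2N cells. The GAPDH signal ratio of 3-prime to 5-prime probe sets lay between 0.94 and 1.02. The same ratio for ACTB was 1.685 in control, 1.739 in LATS2 and 1.849 in LATS2N cells. The part of the 18S difference in the ratios below was not tested.

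ANKRD37, ADM, EGLN3 and VEGFA were lower in LATS2 than in control cells by the size call, and no member was called higher. NDRG1 was just short of the call, EGLN1 and KDM3A were lower by less than 1.5-fold, and HIF1A read almost the same on both arrays. These 4 calls are among 8 members above the floor. In the same comparison 0.842% of the 13186 genes reaching the floor were called lower, and 0.365% of the 7402 genes reaching 500 were. The shares called higher were 0.963% and 0.230%. The median log2 ratio of the 8 members was -1.04. Because the members were chosen with this comparison in view, nothing is read from the distance between those shares. Against control, the LATS2N array had none of the 8 members called in either direction, beside 0.566% of 13245 genes called lower and 0.944% called higher. Of the 7341 genes reaching 500 in that comparison 0.0272% were called lower and 0.0409% higher. The members' median was 0.09. Both constructs are compared with the same control array.

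**Figure D1:**
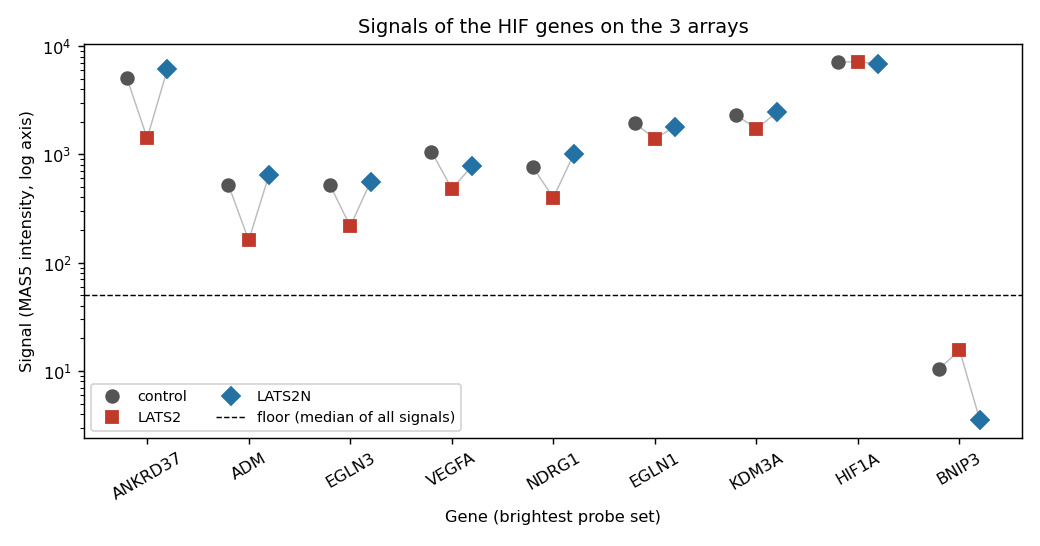
Signal of the brightest probe set of each measured gene (MAS5 intensity, log axis) on the control, LATS2 and LATS2N arrays, 1 point per array, with the floor of 50.5 dashed. For ANKRD37, ADM, EGLN3, VEGFA, NDRG1, EGLN1 and KDM3A the LATS2 point is the lowest of the 3, HIF1A reads between 6869 and 7149, and BNIP3 is below the floor on every array. Heights are to be compared within a gene only.

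Among the targets without a role in oxygen sensing, ANKRD37, a small ankyrin-repeat protein widely used as a HIF target, differed most. It read 5060 in control, 1414 in LATS2 and 6147 in LATS2N cells. The LATS2 array alone was low, 3.58-fold below control, a log2 ratio of -1.84 with a spread of 0.18. Ordered from the lowest ratio among the 7402 bright genes, ANKRD37 was at position 3. That position only describes ANKRD37, which was chosen with these ratios in view. Its second probe set was below the floor on all 3 arrays, so this value rests on 1 probe set. Counting that second probe set as unchanged, the median over both was -0.92, which is short of the call.

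ADM encodes adrenomedullin, a vasodilator peptide. It read 525 in control, 161 in LATS2 and 647 in LATS2N cells, in its only probe set. The LATS2 signal was again the low one, 3.26-fold below control (log2 ratio -1.70, spread 0.34) and at position 5 of the bright genes. With the floor at the 75th percentile of all signals, above the LATS2 signal, the ratio was -0.54 and the call was lost. On the LATS2N array ADM was slightly above control, with a log2 ratio of 0.30 and a spread of 0.15.

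VEGFA encodes the main angiogenic growth factor, and its transcripts are spliced into several forms. Its brightest probe set read 1063 in control, 481 in LATS2 and 779 in LATS2N cells. That is 2.21-fold lower on the LATS2 array (log2 ratio -1.14, spread 0.27). Unlike ANKRD37 and ADM, VEGFA was also below control on the LATS2N array in this probe set, at -0.45 with a spread of 0.15.

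The 4 VEGFA probe sets did not agree. The second brightest read 310, 191 and 275 on the control, LATS2 and LATS2N arrays, and the third read 219, 120 and 102. The third was therefore lower on both construct arrays, by -0.87 (LATS2) and -1.11 (LATS2N) on the log2 scale, and the LATS2N value was past the call. The dimmest, at 71.7, 80.6 and 89.7, was higher on both, at 0.17 and 0.32, within its spreads of 0.44 and 0.48. Which transcripts each probe set reads is not known here. By the median over its probe sets, VEGFA was not called in LATS2 against control, at -0.79.

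NDRG1, a stress-response protein that hypoxia and metal depletion induce, had 1 probe set. It read 760 in control, 398 in LATS2 and 999 in LATS2N cells. Its log2 ratio for LATS2 against control was -0.93 (spread 0.27), a 1.91-fold lower signal that the 2-fold call left out. NDRG1 was the member with the largest positive ratio on the LATS2N array against control, 0.40 with a spread of 0.15.

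BNIP3, a mitophagy receptor of the outer mitochondrial membrane and a strong HIF target in many cells, was not above the floor on any array. In control, LATS2 and LATS2N cells its brighter probe set read 10.4, 15.6 and 3.53, and the other read 1.39, 15.6 and 20.7. These signals are too low to give a direction, so BNIP3 has no ratio although its upstream window held the most core motifs of the 8. Its relative BNIP3L, from the list of other HIF targets, read 1591, 1555 and 2211.

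**Figure D2:**
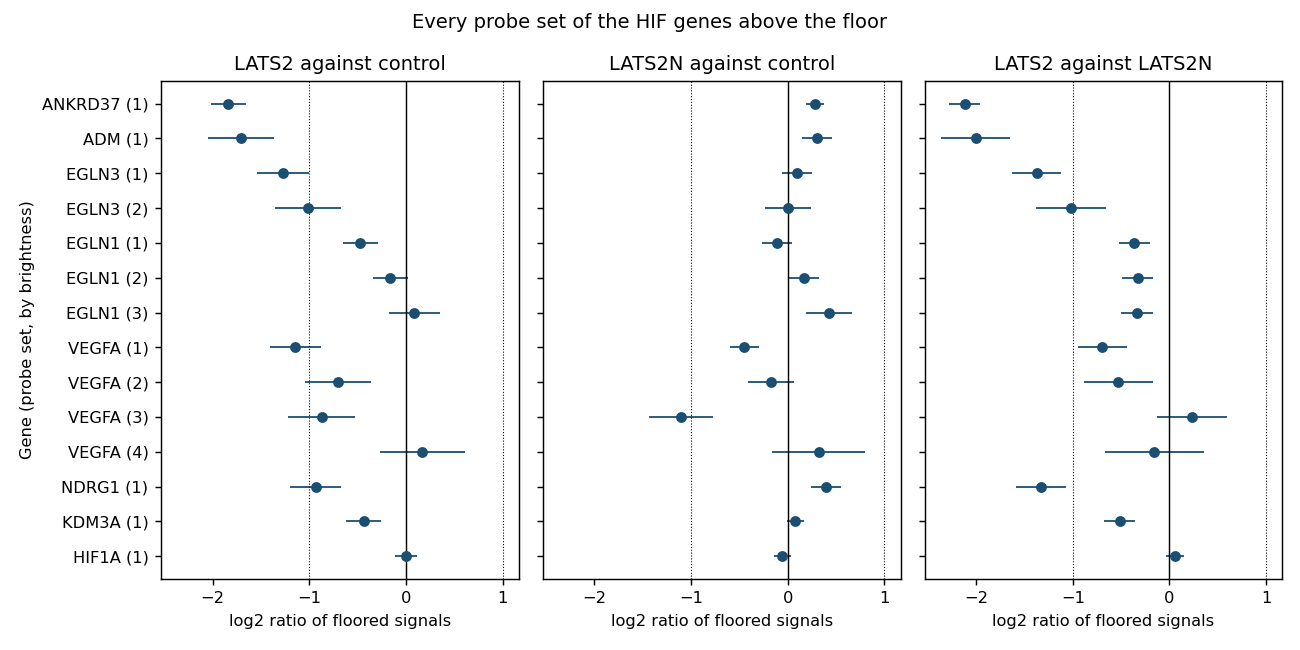
Log2 ratio of floored signals for each of the 14 probe sets above the floor, numbered by brightness within a gene, in the 3 comparisons. Bars are the robust SD between probe sets at like signals (not between cultures), and dotted lines mark the 2-fold call. In LATS2 against control 12 of 14 points lie below 0 and 5 pass the call, in LATS2N against control 1 passes it, a VEGFA probe set. Points of the same gene are not separate members: EGLN3 has 2, EGLN1 has 3 and VEGFA has 4. Shares over all probe sets of the array were not computed, so these counts only describe the points.

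Of the regulators, EGLN3, a prolyl hydroxylase that HIF induces, was the only HIF hydroxylase called. Its brighter probe set read 523 in control, 216 in LATS2 and 560 in LATS2N cells. The second read 218, 108 and 219. Both probe sets were low on the LATS2 array only, 2.42-fold and 2.02-fold below control, with log2 ratios of -1.27 (spread 0.27) and -1.01 (spread 0.34). The 75th percentile floor also ended this call, at -0.54. On the LATS2N array both lay close to control, at 0.10 and 0.00.

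EGLN1 encodes the prolyl hydroxylase that sets HIF-1 alpha levels in most cells. Its brightest probe set read 1945 in control, 1401 in LATS2 and 1803 in LATS2N cells, a log2 ratio of -0.47 for LATS2 against control with a spread of 0.18. The second read 1007, 898 and 1129. The third read 489, 519 and 655, and the dimmest was below the floor throughout. Against control the 3 usable probe sets thus ran from -0.47 to 0.09 on the LATS2 array and from -0.11 to 0.42 on the LATS2N array, without a common direction. Between LATS2 and LATS2N they were close to each other, at -0.36, -0.33 and -0.34.

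KDM3A, a histone H3 lysine demethylase induced by HIF, read 2322 in control, 1716 in LATS2 and 2451 in LATS2N cells. Its log2 ratio was -0.44 for LATS2 (spread 0.18) and 0.08 for LATS2N (spread 0.09). The shift was in the direction of ANKRD37 but 1.35-fold in size, and its second probe set was below the floor.

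HIF1A itself read 7149 in control, 7146 in LATS2 and 6869 in LATS2N cells. The control and LATS2 signals were nearly equal (log2 ratio 0.00, spread 0.12), and LATS2N was at -0.06 (spread 0.09). The HIF1A transcript was level between the arrays on which ANKRD37, ADM, EGLN3 and VEGFA differed. HIF-1 alpha protein was not measured.

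The direct comparison of LATS2 with LATS2N leaves the control array out. ANKRD37 was 4.35-fold lower on the LATS2 array (log2 ratio -2.12, spread 0.16), ADM 4.02-fold (spread of the log2 ratio 0.36), EGLN3 2.59-fold and NDRG1 2.51-fold lower. With the 75th percentile floor ADM and EGLN3 were at -0.85 and -0.64 here and not called. These 4 of 8 were called lower, beside 1.00% of 13175 genes reaching the floor and 0.377% of the 7426 reaching 500. No member was called higher, beside 0.592% and 0.0539% of those genes. VEGFA, called against control, was 1.62-fold lower here and not called, and its LATS2N signal lay between those of the other arrays. KDM3A was 1.43-fold and EGLN1 1.29-fold lower, and HIF1A was at a log2 ratio of 0.06. The members' median log2 ratio was -1.01. ANKRD37 and ADM held positions 2 and 3 from the lowest ratio among the 7426 bright genes, with EGLN3 and NDRG1 at 8 and 9. In this comparison ADM, EGLN3 and NDRG1 reached 500 through the LATS2N array only. The members were chosen with the ratios in view, so these positions are a description and carry no test.

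**Figure D3:**
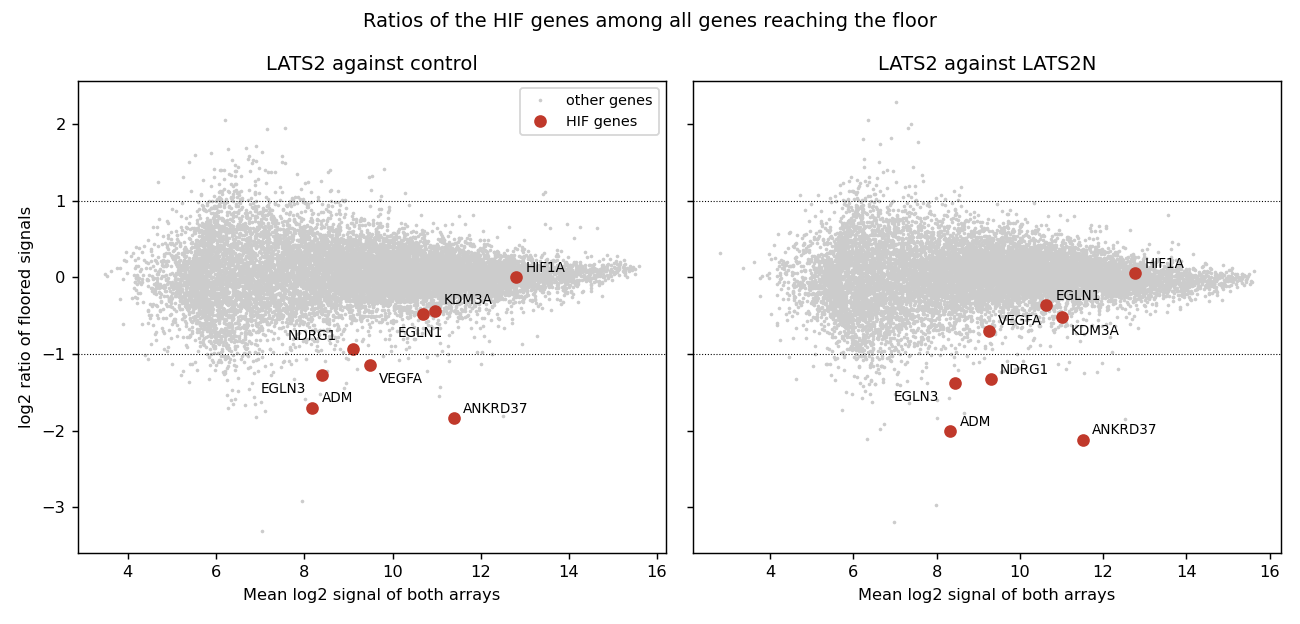
Log2 ratio of floored signals against the mean log2 signal of the 2 arrays compared, for every gene reaching the floor (grey) and the 8 HIF genes above it (red), with the 2-fold call dotted. ANKRD37 stands at -1.84 and -2.12 in a signal range where few genes pass the call, and HIF1A lies near 0 in both panels.

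The other parts of the HIF machinery showed no call in any comparison by their brightest probe sets. The list held 17 subunits, hydroxylases, ligase components and coactivators besides the members. All 17 had a probe set, 15 reached the floor in LATS2 against control, 8 of them were below 0 and 7 above, and the median log2 ratio was -0.01. Over all 13186 genes in that comparison 0.842% were called lower, 0.963% were called higher and 45.2% were below 0. Over 16 genes in LATS2N against control the median was -0.04, and over 15 in LATS2 against LATS2N it was 0.01. Of all genes, 0.566% were called lower and 0.944% higher in LATS2N against control. In LATS2 against LATS2N these shares were 1.00% and 0.592%. At shares this low, no call in a list of this size is not a result about the machinery. EPAS1, which encodes HIF-2 alpha, was dim and level, at 81.7, 80.9 and 78.2 on the control, LATS2 and LATS2N arrays. EGLN2, the third prolyl hydroxylase, was below the floor on all 3. VHL, the recognition subunit of the ligase, read 460, 471 and 443.

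HIF1AN, the asparaginyl hydroxylase, read 857 in control, 833 in LATS2 and 694 in LATS2N cells. All 3 of its probe sets were lowest on the LATS2N array, with log2 ratios against control of -0.31, -0.48 and -0.45. ARNT, the partner of both alpha subunits, read 223, 300 and 343 in its brightest probe set. Its 4 usable probe sets were all higher on the LATS2 array than on control, from 0.43 to 1.25, where the dimmest (68.0 against 161.6) passed the call. On the LATS2N array they ran from -0.48 to 0.62 with no common direction.

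Among other genes that HIF is known to induce outside glycolysis, DDIT4 and CXCR4 were called lower on the LATS2 array against control. Of the 41 listed, 40 had a probe set and 37 reached the floor. Of these 37, 2 were called lower, none higher, 25 were below 0 and the list's median was -0.18 on the log2 scale for LATS2 against control. Over all 13186 genes 0.842% were called lower, 0.963% were called higher, 45.2% were below 0 and the median was 0.03. In LATS2N against control none was called, 11 of 37 were below 0 and the median was 0.09. Over all 13245 genes 0.566% were called lower, 0.944% were called higher, 46.4% were below 0 and the median was 0.02. In LATS2 against LATS2N, 3 were called lower, 24 were below 0 and the median was -0.15, beside 1.00% called lower, 47.7% below 0 and a median of 0.01 over all 13175 genes. This list and the glycolytic one below were chosen with earlier results of these data known. Nothing is therefore read from the distance between their counts and the shares of all genes.

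DDIT4, an inhibitor of mTORC1 induced by HIF and by other stresses, read 10901 in control, 3117 in LATS2 and 11212 in LATS2N cells. It was 3.50-fold below control on the LATS2 array only. CXCR4, a chemokine receptor, read 205, 92.3 and 287, and its 3 probe sets were all lowest on the LATS2 array. Against control 2 of them had log2 ratios of -1.15 and -0.58, and the dimmest was below the floor on the LATS2 array (29.4 against 134.2), so its ratio is only a bound. HILPDA, a lipid droplet protein, read 3116, 1593 and 3421. It was 2.15-fold lower on LATS2 than on LATS2N, where it was called, and 1.96-fold lower than control, where it was not. The brightest genes of the list stayed near control on the LATS2 array by their brightest probe sets. TFRC, the transferrin receptor, was at -0.10, the mitochondrial protein FAM162A at -0.04, P4HB, protein disulphide isomerase, at 0.09 and PLIN2, a lipid droplet coat protein, at 0.09. Their other probe sets with a ratio were at -0.08 and -0.63 for TFRC and at -0.02, 0.03 and -0.34 for FAM162A. Those of P4HB were at -0.28 and -0.24. That of PLIN2 was at -0.655, a bound because its LATS2 signal was below the floor. By brightest probe sets, other HIF targets did not all follow ANKRD37.

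Among the glycolytic targets, ALDOC, PFKFB3 and SLC2A3 were called lower on the LATS2 array in both of its comparisons, and the brightest enzymes were near control. Of 21 genes 20 had a probe set and all 20 reached the floor. In LATS2 against control 3 were called lower, none higher, 13 were below 0 and the median was -0.08. Of all genes in that comparison, 0.842% were called lower, 0.963% were called higher and 45.2% were below 0. In LATS2N against control none was called, 5 were below 0 and the median was 0.14. Of all genes there, 0.566% were called lower, 0.944% were called higher and 46.4% were below 0. In LATS2 against LATS2N 3 were called lower and all 20 were below 0, by as little as 0.01, with a median of -0.21. Beside this, 1.00% of all genes were called lower, 47.7% were below 0 and the median was 0.01. The signs are those of the brightest probe sets only. In this comparison other probe sets of TPI1 were at -0.07 and 0.51, of GAPDH at -0.04 and 0.01, and of ENO1 at 0.00, -0.12 and 0.05. ALDOC, an aldolase isoform, read 344 in control, 137 in LATS2 and 488 in LATS2N cells. PFKFB3, which makes the activator of phosphofructokinase, read 889, 388 and 809, and SLC2A3, a glucose transporter, read 6955, 3460 and 7935. The other SLC2A3 probe sets were at -0.58 and -0.56 against control, short of the call. The brightest enzymes, ENO1, GAPDH, LDHA and TPI1, stayed near control in LATS2 cells by their brightest probe sets. Their log2 ratios were 0.12, 0.12, -0.04 and 0.01. A dimmer TPI1 probe set was at 0.44.

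**Figure D4:**
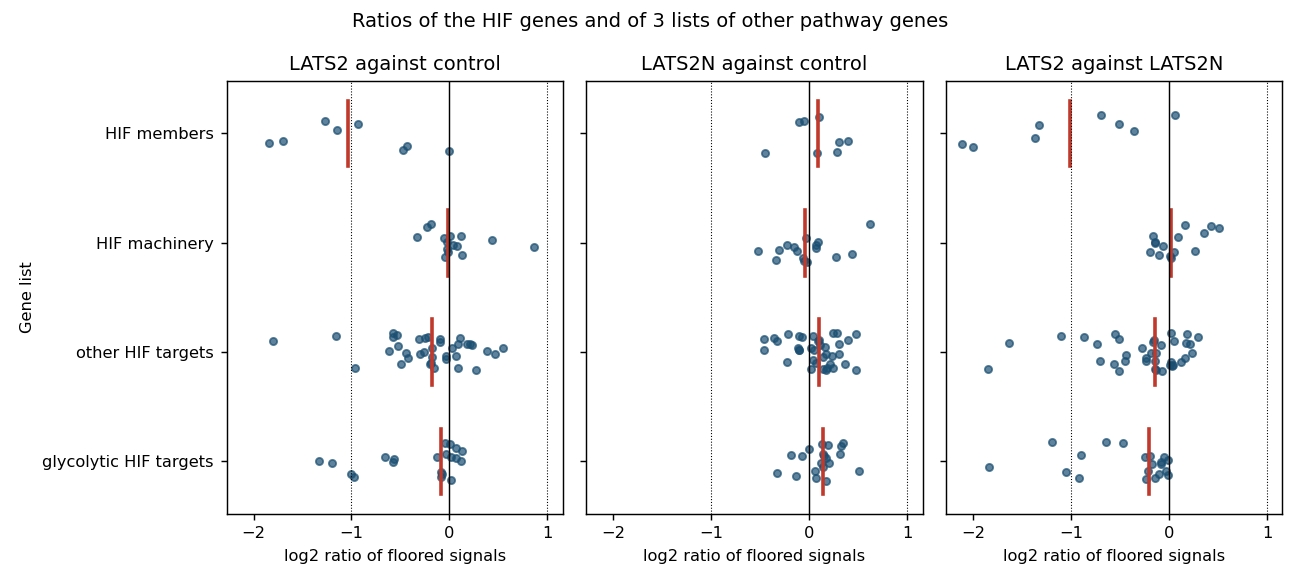
Log2 ratio of floored signals for each gene reaching the floor in the 10 HIF genes and in the lists of HIF machinery, other HIF targets and glycolytic HIF targets, in the 3 comparisons. Points are genes, red bars are list medians and dotted lines mark the 2-fold call. For LATS2 against control the medians are -1.04, -0.01, -0.18 and -0.08.

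The 5 genes whose pair of log2 ratios against control lay nearest to that of ANKRD37, by Euclidean distance over the 3 arrays and among 7491 bright genes above the floor on all arrays, were DDIT4, TM4SF1, ABAT, PFKFB3 and TNFAIP2. DDIT4 was at a distance of 0.24. TM4SF1, a cell surface protein, was at 0.42 (788 in control, 289 in LATS2 and 1058 in LATS2N cells). ABAT, a GABA transaminase, PFKFB3 and TNFAIP2 followed at 0.71, 0.77 and 0.81. Both DDIT4 and PFKFB3 were on the lists of known HIF targets, and TM4SF1, ABAT and TNFAIP2 were on neither. Those lists were chosen with earlier results of these data known. The share of listed genes among the 7491 was not computed, so nothing is read from this overlap. With 3 arrays, a like pattern is a description of these arrays alone.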

How the data were processed

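Total RNA of 3 samples, 1 per group, was labelled with biotin and hybridised to Affymetrix arrays of 54675 probe sets. The deposited values are intensities, made by the authors with MAS5 per the submitters' processing notes, and the version and settings are not given in the sources used here. Trimmed of 2% of values at either end, the mean signal was 500.1 on every array, so the arrays share a scaling target and no further normalisation was added. Of the probe sets, 41091 had exactly 1 symbol, updated through gene IDs to the RefSeq table of GRCh38.p14 for 41037.

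Signals were floored at their overall median of 50.5, and log2 ratios, calls at 2-fold and the spread between probe sets were computed with Python 3.11.15, numpy 2.4.6 and pandas 2.3.3. The computation of calls was checked on simulated data with known shifts, which says nothing about these samples. With 1 array per group no test of a difference was possible, and the number of arrays limits the precision. The named genes are the members, 5 machinery genes, every called gene and the 4 brightest uncalled genes of each target list, and the 5 nearest to ANKRD37. Further genes are named as markers or after their values were seen. The members and lists were chosen with earlier results of these data known. Floor, probe set choice, normalisation and call size were varied.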

Additional observations from a re-analysis of the deposited data

How the results depend on the processing

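Each member's log2 ratios and the counts were recomputed with other floors, other rules for the probe set of a gene, quantile normalisation, centring on the median ratio and a 1.5-fold call. A median over probe sets reaching the floor was added after seeing the data. The share of all genes called was not recomputed under these settings, so the counts below describe the members only. Quantile normalisation, centring and the 25th percentile floor left 4 members called lower in LATS2 against control and 4 in LATS2 against LATS2N, and the 1.5-fold call gave 5 in each. With the floor at the 75th percentile, which is above the LATS2 signals of ADM and EGLN3, both counts fell to 2, with medians of -0.54 and -0.67. The median over all probe sets, which counts those below the floor as unchanged, gave 2 called lower in LATS2 against control, without ANKRD37 and VEGFA, and a median of -0.70 in LATS2 against LATS2N. The median over probe sets reaching the floor gave 3 in LATS2 against control, without VEGFA. Without probe sets ending in _x_at or _s_at, 4 members remained measurable and 2 were called lower in each of these comparisons, ANKRD37 and ADM. With no floor, BNIP3 entered at signals near 0: it became 1 member called lower in LATS2N against control and 1 called higher in LATS2 against LATS2N, where the median was -0.70, as it was with the 25th percentile floor. Of 180 single-gene recomputations 163 moved by less than the spread between probe sets, 17 moved by more and no called ratio changed sign. Many of the 163 could not move. Lowering or removing the floor leaves these ratios as they are, since the brightest probe sets concerned read above it on all arrays. A rule for choosing among probe sets cannot change a member with 1 probe set. The tally is therefore not a measure of robustness. The log2 ratio of ANKRD37 for LATS2 against control ran from -1.88 to -0.92, that of ADM from -1.74 to -0.54, of EGLN3 from -1.31 to -0.54 and of VEGFA from -1.18 to -0.79. No paired analysis was possible because each group has 1 array. Signals near the floor give no direction, and no setting replaces a second culture.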

Other observations

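Some HIF targets that were not called, named here after their values were seen, also read lowest on the LATS2 array. BHLHE40, a transcriptional repressor, read 3418 in control, 2295 in LATS2 and 3841 in LATS2N cells. The collagen prolyl hydroxylase genes P4HA1 (3676, 2537 and 3730) and P4HA2 (2066, 1518 and 2170) were at -0.54 and -0.44 on the log2 scale in LATS2 cells against control. Among regulators of glucose use, PDK1, which restrains pyruvate oxidation, read 1315, 886 and 1649, and PFKFB4 read 1271, 851 and 1608. The glycolytic targets HK2 (5853, 2970 and 4641) and HK1 (2081, 1318 and 1824) were also lowest on the LATS2 array. Unlike the genes just named, HK2 and HK1 were below control on the LATS2N array too, at -0.33 and -0.19. Other listed targets went the other way on the LATS2 array: KDM4C, a histone demethylase, was at 0.47, WSB1 at 0.39 and ANKZF1 at 0.55. These genes were also above control on the LATS2N array, at 0.18, 0.18 and 0.37. All values in this paragraph are of brightest probe sets.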
